A study of Mus musculus with 2 samples.

Results

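A set of 7 genes that arm cytotoxic lymphocytes was followed through single-cell RNA sequencing (scRNA-seq) of the mouse meninges: Gzma, Gzmb, Gzmk, Prf1, Nkg7, Ctsw and Ifng. They were chosen by gene symbol, each matched 1 row of both count matrices, and they make up 7 of the 32285 genes listed there. The data came from 2 libraries, one for each group. For the TBI group, dorsal meninges were taken 1 week after a mild closed-skull traumatic brain injury (TBI), and for the Sham group 1 week after a Sham procedure. Both groups were male wild-type C57BL/6 mice (C57BL/6J in the study's methods) of 10 weeks of age by one label and 10-12 weeks by another, 5 mice were pooled in each library, and the tissue did not include the site of impact. Live single cells were sorted and captured with the 10x Genomics 3′ chemistry, in which every cell carries a barcode and every captured transcript a unique molecular identifier (UMI). Since each group is a single library of pooled mice, the groups could not be tested against each other, and group and library cannot be told apart. Every interval given is a 95% interval that covers counting error only, not the variation between mice or libraries. Intervals of levels and of their ratios count summed UMIs, so they also leave out the variation between cells.

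Natural killer (NK) cells and CD8 T cells kill target cells by releasing granules into the contact with them. Perforin, the product of Prf1, opens pores in the target membrane, and granzymes are serine proteases that enter the target and start cell death or cleave other substrates. Nkg7 is a membrane protein of the granules, Ctsw encodes cathepsin W, a cysteine protease found mainly in NK cells and CD8 T cells, and Ifng encodes interferon gamma, a secreted cytokine that activates macrophages. ILC2s, innate lymphoid cells of type 2, lack T cell receptors and are known for type 2 cytokines rather than for killing.

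All 7 genes are protein-coding. On GRCm38, the assembly of mm10, Gzma (ENSMUSG00000023132) lies on the minus strand of chromosome 13 at 113093825-113100981 and Gzmk (ENSMUSG00000042385) on the same strand at 113171608-113225908, with 70.6 kb between them. Gzmb (ENSMUSG00000015437) lies on chromosome 14 at 56258838-56262260 on the minus strand. Prf1 (ENSMUSG00000037202) and Ifng (ENSMUSG00000055170) are both on the plus strand of chromosome 10, at 61297833-61304680 and 118441046-118445892. Nkg7 (ENSMUSG00000004612) is on the plus strand of chromosome 7 at 43437073-43438249, and Ctsw (ENSMUSG00000024910) is on the minus strand of chromosome 19 at 5465043-5468507.

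The 3 granzyme genes are shown with the 250 bases before their RefSeq start (GRCm38.p6, minus strand, written 5′ to 3′), because Gzma and Gzmk are neighbours on chromosome 13 whose UMIs lay mostly in different classes of cells. The windows are chr13:113100982-113101231 for Gzma, chr14:56262335-56262584 for Gzmb and chr13:113180966-113181215 for Gzmk, and the last of these lies inside the longer GENCODE span of Gzmk. Capitals mark the RUNX core TGTGGT or its reverse ACCACA, and the T-box core GGTGTGA or its reverse TCACACC, the cores bound by transcription factor families to which Runx3, Tbx21 and Eomes belong.
Gzma: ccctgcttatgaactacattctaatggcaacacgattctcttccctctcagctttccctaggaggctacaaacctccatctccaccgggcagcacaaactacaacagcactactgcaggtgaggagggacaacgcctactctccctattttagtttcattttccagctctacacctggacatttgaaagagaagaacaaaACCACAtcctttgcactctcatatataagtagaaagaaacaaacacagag
Gzmb: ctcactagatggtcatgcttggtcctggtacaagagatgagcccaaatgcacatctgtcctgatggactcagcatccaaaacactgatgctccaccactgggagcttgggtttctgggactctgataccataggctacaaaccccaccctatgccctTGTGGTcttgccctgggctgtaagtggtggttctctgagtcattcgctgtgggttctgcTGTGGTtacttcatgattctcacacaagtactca
Gzmk: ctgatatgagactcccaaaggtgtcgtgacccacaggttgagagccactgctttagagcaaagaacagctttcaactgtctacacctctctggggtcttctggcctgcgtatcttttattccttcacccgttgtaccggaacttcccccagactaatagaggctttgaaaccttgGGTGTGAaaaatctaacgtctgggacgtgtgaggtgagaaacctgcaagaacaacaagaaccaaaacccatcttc
The Gzma window held 1 RUNX core, the Gzmb window 2 and the Gzmk window none, while the only T-box core of the 3 windows was in Gzmk. RefSeq gave a window for 6 of the 7 genes, all but Ctsw. Of these 6, 4 had a RUNX core (Gzma, Gzmb, Prf1 and Nkg7) and 2 a T-box core (Gzmk and Nkg7), against 14.0% and 3.33% of 32851 promoters of the same length. The match is one of letters, and no binding was measured.

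After filtering, 2043 Sham cells with 7866611 UMIs and 3773 TBI cells with 13940740 UMIs remained, with medians of 2764 and 2663 UMIs per cell. The limit on hemoglobin removed unequal numbers, since 604 of 2699 Sham barcodes and 431 of 4349 TBI barcodes exceeded it. The libraries shared 20 barcodes, 14 of them among filtered cells. Cells were clustered without the 7 genes, so that the genes did not define the classes in which they were then measured, and 835 lymphoid cells were clustered again. Each class was named from its markers, so marker values are no independent evidence for a name. The NK-like class held 90 Sham and 91 TBI cells and had UMIs of all 12 NK markers counted (Tyrobp, which myeloid cells share, was left out), summing to 7756 CPM in Sham and 6112 CPM in TBI, where CPM is UMIs per 1000000 UMIs of the class. The natural killer receptor genes Ncr1 and Klrb1c were in 87.3% and 90.1% of its cells. T-like cells were divided by their UMIs of Cd4 and of Cd8a or Cd8b1 into 28 Sham and 53 TBI CD8-like cells, 35 and 33 CD4-like cells and 45 and 100 T-like cells that could not be assigned. ILC2-like cells numbered 67 and 106 and gamma-delta or type 17-like cells 23 and 35. A shallow lymphoid subcluster of 76 and 53 cells (medians of 756 and 779 UMIs) stayed unnamed. It too had UMIs of all 12 NK markers, at 2029 CPM in Sham and 1146 CPM in TBI. Predicted doublets, 33 in Sham and 114 in TBI, were left in. How many were called in each library was set in advance by its number of cells, so the larger TBI number is not a finding.

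The classes that held the UMIs differed from gene to gene. In both libraries together, NK-like cells held 95.6% of all Gzma UMIs, 89.8% of those of Gzmb and 88.1% of those of Prf1, the genes of the pore and of the proteases that enter through it. By library these shares were 98.4% in Sham and 91.7% in TBI for Gzma, 90.6% and 88.6% for Gzmb and 92.6% and 82.4% for Prf1. For Nkg7 the NK-like share was 68.0% in Sham and 45.0% in TBI and for Ctsw 55.8% and 41.7%, and most of the rest was in T-like cells. The NK-like share of Ifng was 62.5% in Sham and 31.5% in TBI, where unassigned T-like cells held 37.1%. Gzmk had 1 UMI in 181 NK-like cells, and CD8-like cells held 88.9% of its UMIs in Sham and 54.8% in TBI. This division of each gene over the classes is drawn in the plot of UMI origin.

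**Figure D1:**
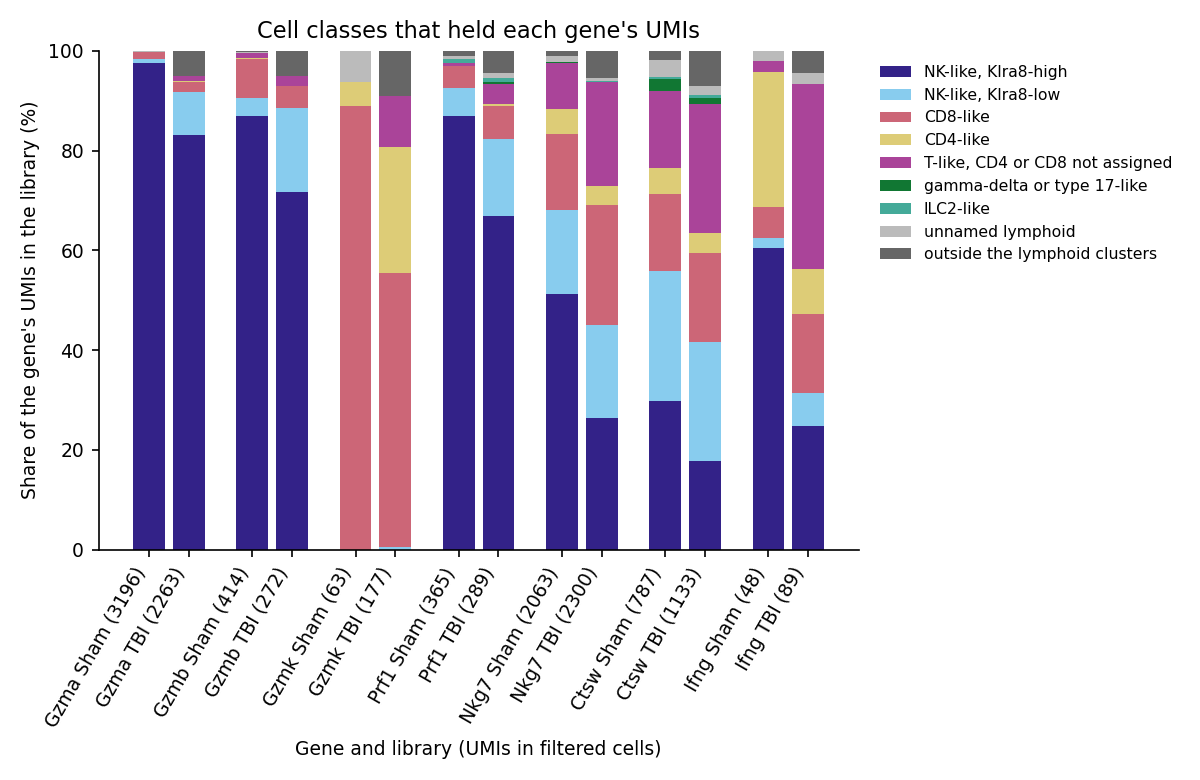
Share of each gene's UMIs that lay in each cell class, in percent of the gene's UMIs in the filtered cells of that library (number in brackets). Gzma, Gzmb and Prf1 were mostly in NK-like cells (at least 82.4% in each library), Gzmk in CD8-like and other T-like cells, and Nkg7, Ctsw and Ifng in both.

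The NK-like cells consisted of 2 subclusters, which differed in Klra8, the gene of an activating receptor of the Ly49 family found on part of the NK cells. The first was led by Ccl3, Klra8, S1pr5 and Itgam and is called Klra8-high here, with a Klra8 UMI in 67.9% of 112 cells and a Cd3e UMI in 0.893%. The second is called Klra8-low, with Klra8 in 10.1% of 69 cells, Cd7 in 85.5% and Xcl1 in 92.8%. Its genes of highest fold over other lymphoid cells were Gzmc, which only 13.0% of its cells had, and then C1qa, H2-Ab1, H2-Aa, Cd74 and Lyz2, genes of macrophages and antigen presentation. Against all cells its leading genes included Xcl1, Klrc1, Ncr1, Klra7 and Klrb1c. Eomes was in 27.5% of Klra8-low cells, S1pr5 in 2.90% and Itgam in 1.45%, against 57.1%, 61.6% and 43.8% of Klra8-high cells. Whether the Klra8-low subcluster holds only NK cells was not tested. The marker lists used for naming included none for innate lymphoid cells of type 1, so such cells could not have been named apart. Cd3e was found in 21.7% of Klra8-low cells. In the Klra8-low subcluster 8 of 26 Sham cells and 15 of 43 TBI cells had a UMI of Cd3d, Cd3e or Cd3g. Macrophage markers were also unequal there, with 1 UMI in Sham and 264 in TBI, of which 258 were in 6 cells. B cell markers went the other way, with 69 UMIs (526 CPM) in Sham and 42 UMIs (218 CPM) in TBI. Because the subclusters differed in this way, levels are given for both of them. Ratios of the whole NK-like class without the cells with Cd3 or macrophage marker UMIs are given last.

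Gzma, encoding granzyme A, was found in nearly every Klra8-high cell. It had a UMI in 63 of 64 Sham cells and in 48 of 48 TBI cells of that subcluster, and at equal depth, each cell thinned to 1000 UMIs, in 96.9% and 97.9%. Per cell the Sham values ran from 0 to 402 UMIs per 10000 with a median of 156, and the TBI values from 3.79 to 322 with a median of 124. The ranges of the libraries overlapped almost wholly. Summed over the subcluster Gzma stood at 13876 CPM (13394 to 14372) in Sham and 12580 CPM (12018 to 13161) in TBI, a log2 ratio of TBI over Sham of -0.14 (-0.22 to -0.06).

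In Klra8-low cells the same gene was found in 3 of 26 Sham cells, with 12, 11 and 1 UMIs, and in 7 of 43 TBI cells, with 65, 36, 35, 32, 11, 8 and 8 UMIs. All other cells of the subcluster had none, so the class level rests on 10 cells. It was 183 CPM (117 to 272) in Sham and 1010 CPM (873 to 1162) in TBI. Klra8-high cells thus had 75.8 times the Gzma level of Klra8-low cells in Sham and 12.5 times in TBI.

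Gzmb and Prf1 were divided between the subclusters in the same direction. Gzmb, encoding granzyme B, had a UMI in 73.4% of Klra8-high cells in Sham and 75.0% in TBI, and the highest cells had 80 and 29 UMIs against medians of 2 and 1. Its level there was 1601 CPM (1440 to 1775) in Sham and 1304 CPM (1127 to 1501) in TBI, and 114 and 238 CPM in Klra8-low cells, where 1 TBI cell with 25 of the 46 UMIs set the level. Prf1 had a UMI in 93.8% and 81.2% of Klra8-high cells, which became 67.2% and 68.1% at equal depth. The level of Prf1 was 1410 CPM (1259 to 1574) in Sham and 1291 CPM (1115 to 1486) in TBI in Klra8-high cells, and 160 and 233 CPM in Klra8-low cells. Both genes were thus between 5.47 and 14.0 times higher in Klra8-high cells in each library.

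All 3 of Gzma, Gzmb and Prf1 were found together in 45 of 64 Klra8-high cells in Sham and 31 of 48 in TBI (46.9% and 42.6% at equal depth). In the Klra8-low subcluster this was so in 1 of 26 and 4 of 43 cells, and in 0 and 0 at equal depth. No UMI of Gzma, Gzmb, Gzmk or Prf1 was found in 10 Sham and 22 TBI cells of that subcluster, 46.4% of it. These were 38.5% of its Sham and 51.2% of its TBI cells. At equal depth the order was reversed, with 21 of 26 Sham cells (80.8%) and 27 of 43 TBI cells (62.8%), 69.6% in all.

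Nkg7 and Ctsw did not divide the NK-like cells in this way. Nkg7 had a UMI in 99.1% of Klra8-high and 91.3% of Klra8-low cells, and its level was 1.80 times higher in Klra8-high cells in Sham and 1.84 times in TBI. Ctsw was found in 93.8% and 95.7%. In Sham its level was 1.50 times higher in Klra8-low cells, at 1563 CPM (1357 to 1793) against 1041 CPM (912 to 1183). In TBI the levels of 1404 CPM (1242 to 1581) and 1344 CPM (1165 to 1543) had overlapping intervals. Gzmk had 0 UMIs in the 64 Sham and 48 TBI Klra8-high cells, which allows a share of cells with a UMI of up to 4.69% and 6.25%, and 0 and 1 UMIs in Klra8-low cells.

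**Figure D2:**
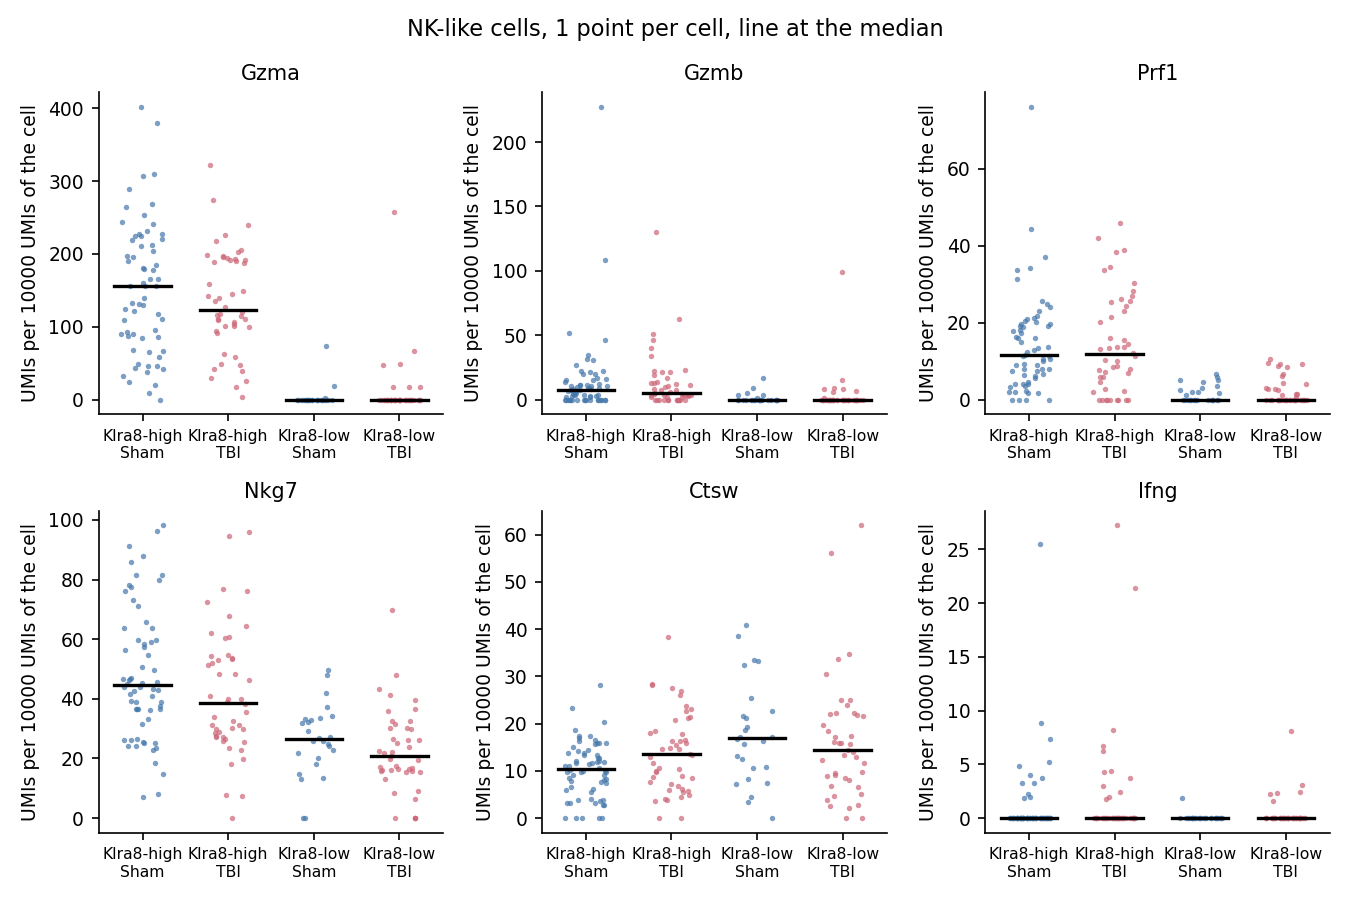
UMIs of each gene per 10000 UMIs of the cell (vertical axis) in NK-like cells, 1 point per cell, for the Klra8-high (64 Sham, 48 TBI) and Klra8-low (26 Sham, 43 TBI) subclusters, with a line at the median. The medians of Gzma, Gzmb and Prf1 were 0 in Klra8-low cells, though single cells had UMIs, with Prf1 up to 6.68 in Sham and 10.5 in TBI. In Klra8-high cells the Sham and TBI medians were 156 and 124 for Gzma, 7.82 and 4.84 for Gzmb and 11.5 and 11.8 for Prf1. Those of Nkg7 and Ctsw were above 0 in both subclusters.

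Interferon gamma transcripts were sparse. Ifng had 30 UMIs in 13 of 90 NK-like cells in Sham, 10 of them in 1 cell, and 28 UMIs in 18 of 91 in TBI, at most 4 in a cell. The levels of 84.3 CPM (56.9 to 120) and 81.7 CPM (54.3 to 118.1) gave a log2 ratio of -0.04 (-0.84 to 0.75), and no difference was detectable at this depth. In Klra8-high cells 12 of 64 and 12 of 48 had a UMI, and 9.38% and 12.8% at equal depth. In Klra8-low cells 1 of 26 and 6 of 43 had a UMI, at 7.63 and 31.1 CPM, so that the level was 16.9 times higher in Klra8-high cells in Sham and 4.73 times in TBI.

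For Gzma, Gzmb and Prf1 the ratio of TBI over Sham lay nearer to 0 in NK-like and Klra8-high cells than in the whole library, whereas in Klra8-low cells it was above 0. Over the whole library Gzma was at 406 CPM (392 to 421) in Sham and 162 CPM (156 to 169) in TBI, a log2 ratio of -1.32 (-1.40 to -1.25). In NK-like cells the ratio was -0.54 (-0.62 to -0.46), from 8832 to 6060 CPM, and in Klra8-high cells -0.14. Gzmb had ratios of -1.43 (-1.66 to -1.21), -0.58 (-0.82 to -0.35) and -0.29 (-0.55 to -0.04) at the same levels of definition, and Prf1 -1.16 (-1.39 to -0.94), -0.45 (-0.70 to -0.21) and -0.13 (-0.39 to 0.14). In Klra8-low cells the ratios were 2.44 (1.85 to 3.14) for Gzma, 1.03 (0.19 to 2.01) for Gzmb and 0.52 (-0.24 to 1.36) for Prf1, from the few cells described above. Predicted doublets were 1 of the 26 Sham and 4 of the 43 TBI cells of that subcluster. Its ratios were not computed without them or without cells with Cd3 or macrophage marker UMIs. In a sum over the whole library, fewer cells of a class and less RNA per cell cannot be told apart.

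The numbers of cells differed as well. NK-like cells made up 4.41% (3.56 to 5.39) of Sham cells and 2.41% (1.95 to 2.95) of TBI cells, and 4.53% and 2.46% of the UMIs. Within them Klra8-high cells were 64 of 90 in Sham, or 71.1% (60.6 to 80.2), and 48 of 91 in TBI, or 52.7% (42.0 to 63.3). By UMIs, Klra8-high cells held 63.2% of the NK-like class in Sham and 43.6% in TBI. Both kinds of share count Klra8-low cells with Cd3 UMIs (8 in Sham, 15 in TBI) or 3 or more macrophage marker UMIs (0 and 6). They also count the predicted doublets of that subcluster (1 and 4). The shares, and the weighted levels that follow, were not computed without these cells. Weighted to the Sham share of UMIs, the TBI level of Gzma in NK-like cells was 8318 CPM, a log2 ratio of -0.09. That of Prf1 was 901 CPM, a log2 ratio of -0.08. For Gzmb the weighted ratio was -0.21 and for Nkg7 -0.22. Shares are relative, and B-like cells (18.6% in Sham, 7.77% in TBI) and fibroblast-like cells (3.13% and 11.9%) also differed between these libraries, so fewer NK-like cells and more of other cells cannot be told apart.

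The ratios of Nkg7 and Ctsw were nearer to 0 than those of Gzma, Gzmb and Prf1 in the whole library and in NK-like cells, but not in Klra8-high cells. Nkg7 was at 262 CPM in the Sham library and 165 CPM in the TBI library, a log2 ratio of -0.67 (-0.75 to -0.58), and at 3941 and 3021 CPM in NK-like cells, a ratio of -0.38 (-0.50 to -0.27). In Klra8-high cells its ratio was -0.21 (-0.36 to -0.07). Ctsw had a log2 ratio of -0.30 (-0.43 to -0.17) in the whole library, 0.16 (-0.03 to 0.35) in NK-like cells and 0.37 (0.09 to 0.65) in Klra8-high cells, where it was the only one of the 6 genes whose interval lay above 0. Gzmk had the opposite sign in the whole library, with 8.01 CPM (6.15 to 10.2) in Sham and 12.7 CPM (10.9 to 14.7) in TBI, a log2 ratio of 0.66 (0.24 to 1.10). Of its 177 TBI UMIs, 35 were in 1 CD4-like cell, 14 in 1 unassigned T-like cell and 11 in 1 dendritic-like predicted doublet. Of its 63 Sham UMIs, 13 were in 1 cell. Over 8 alternatives the Gzmk ratio ran from 0.18, as a mean over cells, to 0.98. The share of all cells with a Gzmk UMI differed by 0.26 points (-0.34 to 0.79), TBI minus Sham. For Ifng the ratio was 0.06 (-0.46 to 0.60).

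**Figure D3:**
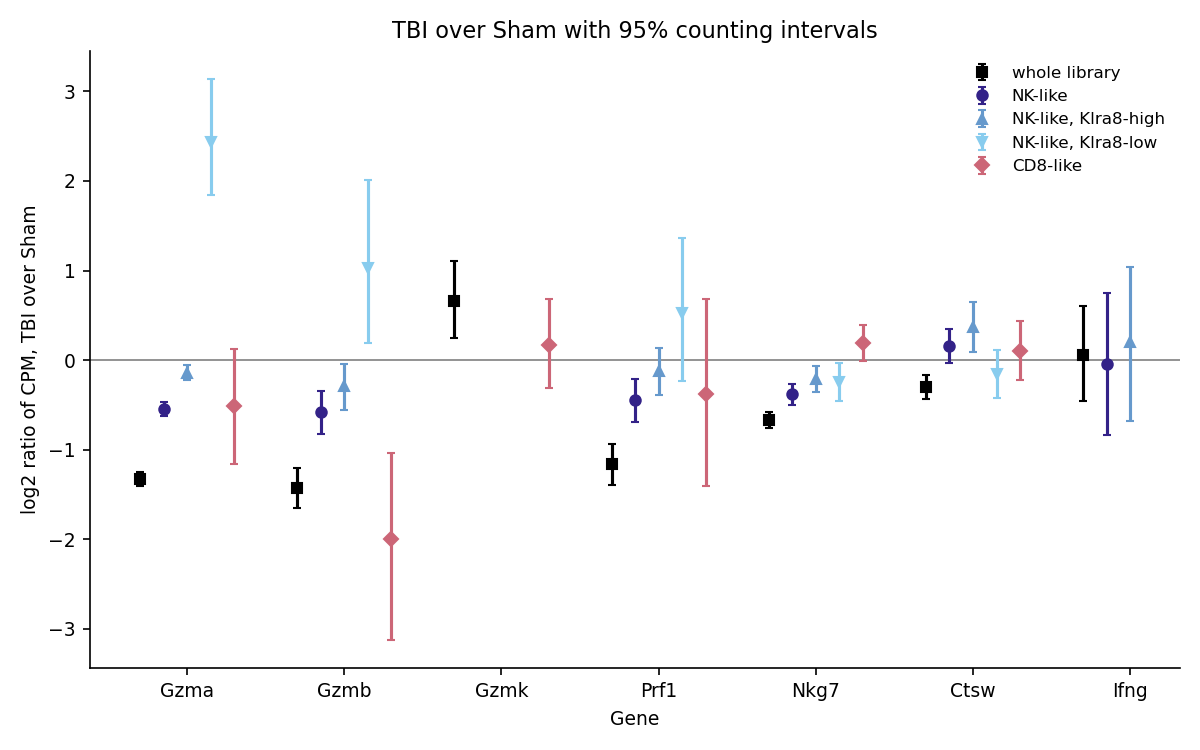
Log2 ratio of CPM in TBI over Sham for each gene (vertical axis) in the whole library, in NK-like cells, in their Klra8-high and Klra8-low subclusters and in CD8-like cells, with 95% counting intervals, drawn where the gene had at least 20 UMIs. For Gzma, Gzmb and Prf1 the ratio moved toward 0 from the whole library over NK-like to Klra8-high cells.

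All genes with 20 or more UMIs in a class give the background for these ratios, and a log2 ratio of 1 in either direction was taken as the fold to pass. In NK-like cells 0 of the 6 genes measured were at least 1 higher and 0 at least 1 lower, where 3.04% and 2.46% of all 4805 genes were. The median log2 ratio of the 6 was -0.42 and that of all genes -0.03. In CD8-like cells 0 of 6 were higher and 1 (Gzmb) was lower, with 4.74% and 2.08% of 2785 genes. Over the whole library 3 of 7 (Gzma, Gzmb and Prf1) were lower and 0 higher, with 1.88% of 14782 genes lower and 9.27% higher.

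The CD8-like cells carried another set of the same genes. Gzmk, encoding granzyme K, had a UMI in 13 of 28 Sham cells and 30 of 53 TBI cells, with at most 13 and 12 UMIs in a cell. Its level was 346 CPM (261 to 449) in Sham and 390.5 CPM (317 to 476) in TBI, and the interval of the log2 ratio of 0.17 (-0.31 to 0.68) included 0. At equal depth 22.2% and 32.1% of CD8-like cells had a Gzmk UMI, and the medians of 5700 and 3897 UMIs per cell before thinning differed. All 43 Gzmk cells also had a UMI of Nkg7, which was in 92.6% of all CD8-like cells. Of the 43, 14 had Prf1 and 6 had Gzma, where 25 and 7 of all 81 CD8-like cells did. In Klra8-high cells Prf1 was in 99 and Gzma in 111 of 112. In Klra8-low cells Gzma was in 3 of 26 Sham and 7 of 43 TBI cells, so that contrast does not extend to all NK-like cells.

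Gzma in CD8-like cells came from 7 cells, 3 in Sham (34, 6 and 2 UMIs) and 4 in TBI (28, 11, 5 and 1 UMIs), of which 1 also had Prf1. The log2 ratio of -0.52 (-1.16 to 0.12) became 0.40 without the highest cell of each library. Gzmb came from 5 Sham cells with 23, 5, 2, 1 and 1 UMIs and 5 TBI cells with 5, 2, 2, 2 and 1. Its log2 ratio of -1.995 (-3.12 to -1.04) became -0.99 without the highest cell of each library, so that 1 Sham cell brought it past the fold. Prf1 was at 98.8 CPM in Sham and 76.5 CPM in TBI from 16 and 19 UMIs.

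Nkg7 and Ctsw were found in most CD8-like cells. Nkg7 stood at 1957 CPM (1747 to 2184) in Sham and 2226 CPM (2044 to 2420) in TBI, a log2 ratio of 0.19 (-0.02 to 0.39), and Ctsw at 753 and 809 CPM, a ratio of 0.10 (-0.23 to 0.44). The share of cells with a UMI at equal depth was higher in TBI for both genes. Nkg7 was in 17 of 27 Sham and 47 of 53 TBI cells (63.0% and 88.7%). Ctsw was in 12 of 27 and 31 of 53 cells (44.4% and 58.5%). No intervals were computed for these shares, which include predicted doublets. Ifng had 3 UMIs in 2 Sham cells and 14 in 11 TBI cells, a log2 ratio of 1.43 (-0.24 to 4.05). CD8-like cells were 1.37% of Sham and 1.40% of TBI cells. Of the predicted doublets 7 were TBI CD8-like cells and 0 Sham CD8-like cells. Without them the log2 ratios in CD8-like cells were -0.11 for Gzma, -1.59 for Gzmb, 0.32 for Gzmk, -0.21 for Prf1, 0.23 for Nkg7 and 0.27 for Ctsw.

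**Figure D4:**
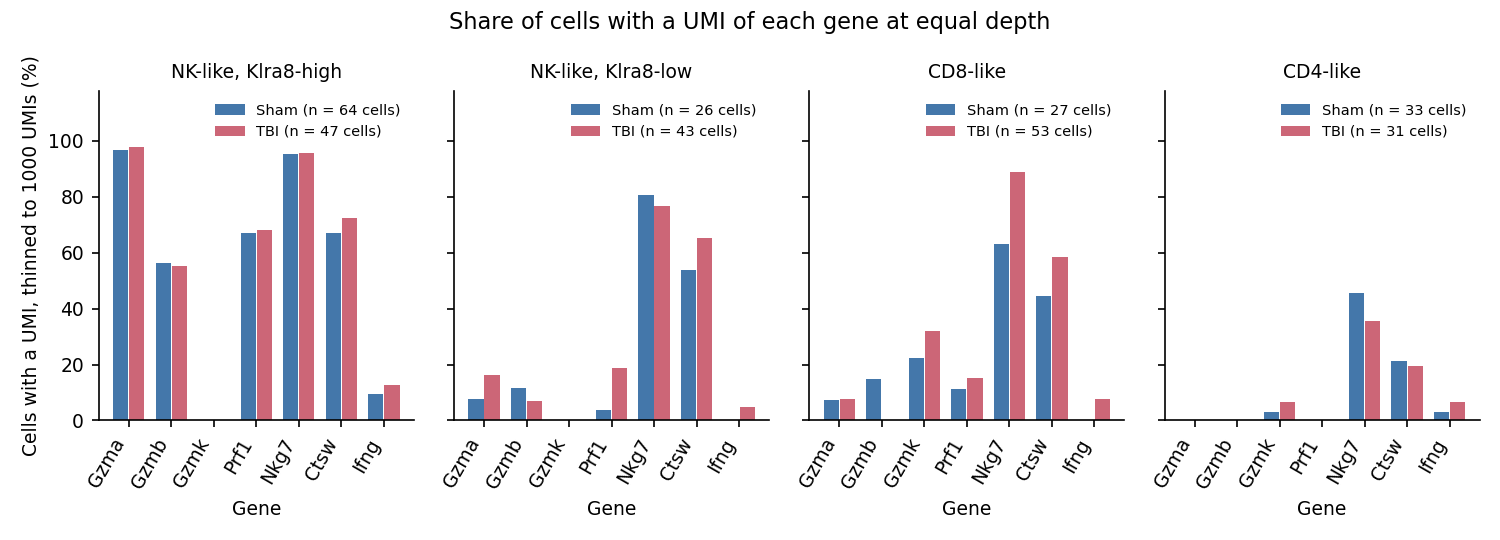
Share of cells with a UMI of each gene, in percent, after thinning every cell to 1000 UMIs, in the NK-like subclusters, CD8-like and CD4-like cells. Klra8-high cells had Gzma in 96.9% (Sham) and 97.9% (TBI), while Gzmk was in 0% of them and in 22.2% and 32.1% of CD8-like cells.

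CD4-like and unassigned T-like cells had Nkg7 and Ctsw but few granzymes. In CD4-like cells Nkg7 stood at 635 and 532 CPM and was found in 34 of 68 cells, and Ctsw stood at 258 and 275 CPM. Gzmk had 3 UMIs in 3 Sham cells and 45 UMIs in 5 TBI cells, of which 35 were in 1 cell, so the log2 ratio of 3.66 (2.23 to 6.20) rested mostly on that cell. Prf1 had 1 UMI and Gzmb 1 UMI in all 68 cells. Unassigned T-like cells had 1170 and 1445 CPM of Nkg7, a log2 ratio of 0.30 (0.06 to 0.55), and 740 and 884 CPM of Ctsw. In these cells Ifng had 1 UMI in Sham and 33 UMIs in 10 TBI cells, 17 of them in 1 cell. Gzma had 1 UMI in Sham and 23 in 1 TBI cell, and Gzmk 0 and 18, of which 14 were in 1 cell. Single cells thus set most of the ratios of rare members in T-like cells.

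In ILC2-like cells 4 of the 7 genes were not detected and the other 3 were rare. Gzma, Gzmb, Gzmk and Ifng had 0 UMIs in all 67 Sham and 106 TBI cells, which allows a share of cells with a UMI of up to 4.48% and 2.83%. Prf1 had 3 and 2 UMIs and Ctsw 4 and 7, the latter in 4.48% and 4.72% of cells. Nkg7 had 0 and 7 UMIs, of which 6 were in 1 cell. All 12 ILC2 markers, the list from which the class was named, were detected in these cells in both libraries, with 569 and 764 UMIs. Gamma-delta or type 17-like cells also had 0 UMIs of those 4 genes, which allows a share of cells with a UMI of up to 13.0% and 8.57%, but had Ctsw, with 18 UMIs in 9 of 23 Sham cells and 14 UMIs in 9 of 35 TBI cells (212 and 110 CPM), and 3 UMIs of Nkg7 in all.

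In cells that should lack the genes the background was low. Over B-like, endothelial-like and fibroblast-like cells the share of cells with a UMI of any one member was at most 1.61% in Sham and 1.11% in TBI, both for Ctsw in endothelial-like cells (medians of 1815 and 2025 UMIs). In B-like cells (medians of 3046 and 2662 UMIs) it was at most 0.525% and 0.683%. Cells outside the lymphoid clusters with 5 or more UMIs of a member numbered 12. Of these 7 were predicted doublets and 11 had a UMI of an NK marker or a Cd3 gene. One dendritic-like TBI cell with 80 Gzma UMIs and 47 UMIs of NK markers held nearly all of the 82 Gzma UMIs in that class, and 1 macrophage-like TBI cell with 29 UMIs of NK markers held 26 of 27. Both were among the predicted doublets.

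The order of the classes by level was therefore not the same for each gene, as the plot of levels by class shows. For Gzma it was Klra8-high cells, then Klra8-low and CD8-like cells, whose order was reversed between the libraries and whose intervals overlapped in Sham. For Nkg7 it was Klra8-high, Klra8-low, CD8-like, unassigned T-like and CD4-like cells in Sham. In TBI Klra8-low and CD8-like cells, at 2212 and 2226 CPM, had overlapping intervals and the rest kept that order. Ctsw had its highest levels in both NK-like subclusters, followed by CD8-like and unassigned T-like cells, which did not differ beyond counting error. For Gzmk CD8-like cells came first, and in TBI the CD4-like interval (201 to 369 CPM) overlapped theirs. The highest levels of Ifng were in Klra8-high cells, with overlapping intervals in CD4-like cells in both libraries and in CD8-like and unassigned T-like cells in TBI. Because UMIs count the 3′ ends of captured transcripts and were not compared per length, levels were compared between cells and not between genes.

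**Figure D5:**
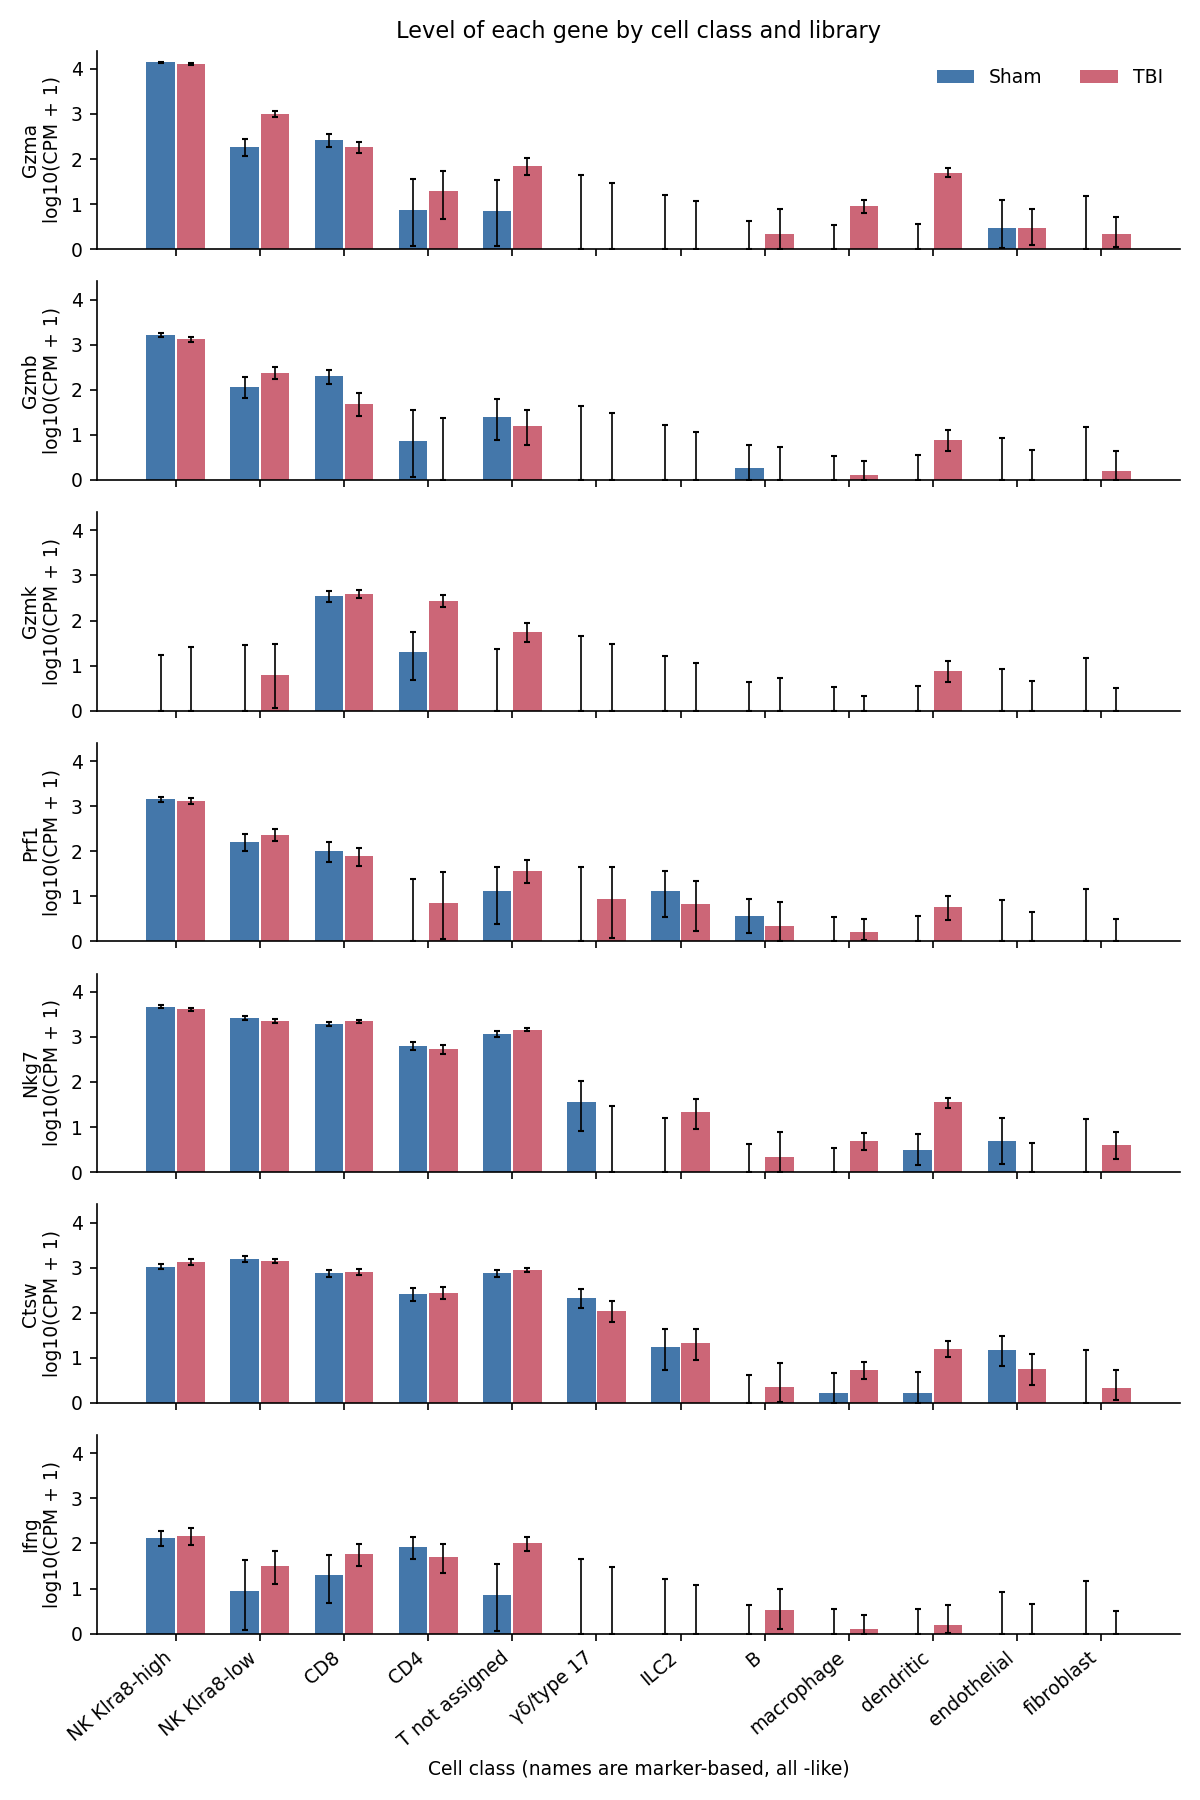
Level of each gene, as log10 of CPM + 1 (vertical axis), in 12 marker-based cell classes of the Sham and TBI libraries, with 95% counting intervals. Gzma reached 13876 and 12580 CPM in Klra8-high NK-like cells, Gzmk was highest in CD8-like cells at 346 and 390.5 CPM, and ILC2-like cells had 0 UMIs of Gzma, Gzmb, Gzmk and Ifng.

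Other genes had similar patterns over 23 classes of both libraries, 46 points that share the 2 libraries. By Pearson's correlation of log2(CPM + 1), the genes most like Gzma were Klrb1c (0.87), Eomes (0.87) and Klra9 (0.87). Those most like Gzmb were Klra9 (0.92), Klrc1 (0.89) and Klre1 (0.88), and those most like Prf1 were Eomes (0.91), Klrc2 (0.90) and Klra7 (0.89). Nearly all of these encode NK receptors, and Eomes is a T-box transcription factor of NK cells. For Nkg7 they were Xcl1 (0.93), Sh2d1a (0.93) and Tigit (0.90), for Ifng Tigit (0.93), Sh2d1a (0.92) and Fasl (0.91), and for Ctsw Il2rb (0.95), Trbc1 (0.92) and Lck (0.92). Trbc1 is a T cell receptor gene, and the others of this group are known from NK and T cells. Klrb1c, Eomes, Klre1, Klrc2, Klra7 and Trbc1 were also among the markers that named the classes, so their likeness is not independent of the class names. Gzmk was most like 3 T cell receptor beta segments, Trbv16 (0.84), Trbv29 (0.82) and Trbv26 (0.79). Among the 7 genes themselves the correlation was 0.95 between Gzma and Gzmb and 0.45 between the neighbouring genes Gzma and Gzmk.

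The rest of the killing machinery was read from 8 gene lists of 74 genes, of which 53 had at least 20 UMIs in NK-like cells. Of these 1 was at least 1 higher on the log2 scale and 1 at least 1 lower in TBI, against 3.04% and 2.46% of all genes, and 20 had a ratio above 0, against 47.1% of all genes. Of 35 genes measured in CD8-like cells 2 were at least 1 higher and 0 lower, against 4.74% and 2.08% of all genes. Nothing particular to the lists is read from these counts. The counts above 0 and medians given below for single lists in NK-like cells stand against the same 47.1% and a median of -0.03 over all genes. Nothing is read from them about a single list either. In the list of other granzymes only Gzmc was measured in NK-like cells. It had 36 UMIs in Sham and 80 in TBI, a log2 ratio of 1.20 (0.62 to 1.82), but single cells held 30 and 49 of them. Gzmm had 1 and 5 UMIs there and 9 and 22 in CD8-like cells, and Gzmd, Gzme, Gzmf, Gzmg and Gzmn had 0 in both classes, where 3 UMIs in NK-like cells would be 8.43 CPM in Sham and 8.76 CPM in TBI.

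Of 9 measured genes that package, activate or inhibit granzymes in NK-like cells, 3 had a ratio above 0 and the median was -0.35. Srgn, the proteoglycan that holds granzymes in the granule, had 927 and 990 CPM and a ratio of 0.09 (-0.13 to 0.32). Cst7, an inhibitor of granule cathepsins, had -0.30 (-0.70 to 0.10), and Serpinb9, which inhibits granzyme B, had -0.75 (-1.20 to -0.31) from 334 to 198 CPM. Serpinb9 was at 476 and 395 CPM in Klra8-high cells and at 91.5 and 46.6 CPM in Klra8-low cells. Serpinb6b, a related serpin, was the gene past the fold, with 289 and 137 CPM and a ratio of -1.07 (-1.61 to -0.57). In Klra8-high cells alone it was at 396 and 194 CPM. The release machinery had small counts, with 6 of 7 measured genes above 0 and a median of 0.43. Its most abundant genes were Vamp8 with a ratio of 0.31 (-0.22 to 0.84), Ap3b1 with 0.56 (-0.28 to 1.45) and Lyst with 0.66 (-0.33 to 1.72), and all 3 intervals included 0.

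In the list of death ligands and cytokines 3 of 7 measured genes had a ratio above 0 in NK-like cells, with a median of -0.11, and the named genes are chemokines. Ccl5 had 13439 and 11104 CPM in NK-like cells, a ratio of -0.28 (-0.34 to -0.21). Within them it had 18288 and 18839 CPM in Klra8-high and 5125 and 5113 CPM in Klra8-low cells. Neither subcluster alone showed a drop of that size. In CD8-like cells Ccl5 had 6901 and 9971 CPM, a ratio of 0.53 (0.43 to 0.63). Ccl4 had a ratio of -0.11 (-0.25 to 0.03) in NK-like cells, with 244 and 331 UMIs in single cells. Its levels were 3812 and 4869 CPM in Klra8-high and 114 and 259 CPM in Klra8-low cells. In CD8-like cells the Ccl4 ratio was 1.80 (0.92 to 2.93), where 32 of the 61 TBI UMIs were in 1 cell. Xcl1 had 1211 and 1270 CPM in NK-like cells, a ratio of 0.07 (-0.13 to 0.26), and was higher in Klra8-low than in Klra8-high cells, with 1914 against 801 CPM in Sham and 1590 against 856 CPM in TBI.

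Among 8 measured transcription factors of cytotoxic cells 1 had a ratio above 0 in NK-like cells. Id2, needed for innate lymphoid cells, had -0.08 (-0.28 to 0.12), Stat4, which signals from the IL-12 receptor, -0.15 (-0.59 to 0.28), and Klf2, a regulator of lymphocyte trafficking, -0.90 (-1.19 to -0.62) from 868 to 464 CPM. Klf2 was also divided between the subclusters, with 1308 and 843 CPM in Klra8-high and 114 and 171 CPM in Klra8-low cells. Zeb2 had 4 and 23 UMIs in CD8-like cells, a ratio of 1.77 (0.36 to 3.90). Of 6 measured receptor genes for IL-12, IL-15 and IL-18 1 had a ratio above 0, with -0.25 (-0.45 to -0.04) for Il2rb, -0.02 (-0.26 to 0.22) for Il2rg and 0.09 (-0.39 to 0.58) for Il18rap. Of 9 activating receptors 2 were above 0, and Ncr1, Klrb1c and Klrk1 had -0.31 (-0.52 to -0.11), -0.33 (-0.55 to -0.11) and -0.20 (-0.42 to 0.02). In Klra8-high cells Ncr1 was at 1534 CPM in Sham and 1545 CPM in TBI, and Klrb1c at 1361 and 1264 CPM. In Klra8-low cells Ncr1 was at 938 and 679 CPM and Klrb1c at 694 and 596 CPM. Of 6 measured genes of the interferon gamma receptor and its targets 3 were above 0, with a median of 0.17. Jak1 had -0.06 (-0.31 to 0.19), Ifngr1 -0.27 (-0.53 to -0.01) and Irf1 -0.56 (-1.05 to -0.08).

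Without the cells that had a Cd3 UMI or 3 or more UMIs of macrophage markers, a choice made after the data were seen, the NK-like log2 ratios were -0.33 (-0.41 to -0.24) for Gzma, -0.31 (-0.56 to -0.07) for Gzmb, -0.11 (-0.37 to 0.15) for Prf1, -0.26 (-0.39 to -0.13) for Nkg7 and 0.36 (0.15 to 0.57) for Ctsw. The interval of Prf1 then included 0, and that of Ctsw no longer did. Without predicted doublets the NK-like ratio of Gzma was -0.45. The direction of these 5 ratios was the same in every alternative run for NK-like cells, while Ifng kept its sign in 3 of 12.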

How the data were processed

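The authors aligned the reads to mm10 and counted UMIs with Cell Ranger, for which the submitters' processing notes name version 2.1.1 and the matrix headers 3.1.0. They deposited raw UMI counts per gene and called barcode, in 1 table for each library, and these hold more barcodes than the study's methods start from. The sources used here do not name the annotation. The notes also name Seurat 3.9.9, whose output was not used.

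Cells with 150 to 5000 detected genes, at most 20% mitochondrial and at most 5% hemoglobin UMIs were kept, the limits of the study's methods. Clustering used log-transformed counts at 10000 UMIs per cell. Without the 7 genes, 2000 variable genes, 20 principal components and 20 neighbours gave Leiden clusters (leidenalg 0.10.2) at a resolution of 0.8, and of 1 for lymphoid cells, without batch correction. Names needed 3 or more of a class's markers, each present in 10% or more of the cluster, among the 50 leading genes when ranked by fold against the remaining cells. A subcluster whose median depth was under 1 / 3 of that of all cells, with no marker of its name among its 10 leading genes, stayed unnamed. T-like cells were divided by Cd4, Cd8a and Cd8b1 UMIs. Doublets were predicted from simulated pairs at 0.8% per 1000 cells.

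UMIs were summed per class and library and given as CPM with exact Poisson intervals. Log2 ratios had 0.5 added to each sum and exact binomial intervals, and shares of cells have exact binomial (Clopper-Pearson) intervals. Limits for a count of 0 use 3 counts, and 3 counts correspond to 8.43 CPM in Sham and 8.76 CPM in TBI NK-like cells. For shares at equal depth, 388 Sham and 539 TBI cells under 1000 UMIs were left out, among them 0 and 1 NK-like cells. The ratio script was checked on simulated sums with counting error only. These had no variation between cells, so the check does not cover genes whose UMIs lay mostly in single cells. Python 3.11.15, numpy 2.4.6 and scipy 1.17.1 were used.

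The genes named were the 7 members, from each gene list up to 3 with the most UMIs in NK-like cells and up to 3 past the fold, and for each member the 3 genes with at least 50 UMIs of most similar level. The subclusters' names and the genes given for them (such as Klra8, S1pr5 and Cd7) were chosen after their values were seen. The members, lists and markers were chosen with earlier results of these data known. Alternatives were another averaging, filters, clusterings, a marker gate, denominators, and leaving out doublets or the highest cell. Gene positions come from GENCODE vM21, matched by gene ID, and promoters from RefSeq.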

Additional observations from a re-analysis of the deposited data

Results flagged for a closer look

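For 3 genes the log2 ratio of TBI over Sham had opposite signs in classes of lymphocytes, with counting intervals that left out 0 on both sides in the values as reported. Only the 7 genes were searched for this. How many of all genes would meet the same rule was not computed, so nothing is read from the count. These differences were not tested, since each group is 1 library. Gzma had a ratio of 2.44 in Klra8-low and -0.14 in Klra8-high NK-like cells, a difference of 2.58, and the Klra8-low level came from 3 Sham and 7 TBI cells. Gzma in unassigned T-like cells had a ratio of 2.96, which is 3.104 above that of Klra8-high cells and came from 1 UMI in Sham and 23 UMIs of 1 TBI cell. Gzmb had a ratio of 1.03 in Klra8-low cells, 1.32 above that of Klra8-high cells and 3.02 above that of CD8-like cells. Of its 46 TBI UMIs in Klra8-low cells 25 were in 1 cell, and without the highest cell of each library the CD8-like ratio was -0.99 (-2.67 to 0.59), an interval that includes 0. For Nkg7 the ratio of 0.30 in unassigned T-like cells was 0.51 above that of Klra8-high cells and 0.55 above that of Klra8-low cells.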

How the results depend on the processing

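Of 236 values under alternatives, for 34 results, 210 lay inside the interval of the value as reported and 216 had its sign. In NK-like cells the log2 ratio of Gzma (-0.54) was -0.45 without predicted doublets, -0.32 and -0.38 at lymphoid resolutions of 0.5 and 2.0, -0.75 with 30 principal components and -0.45 with the 7 genes kept in clustering, and that of Gzmb was -0.31 as a mean over cells. Without cells with Cd3 or macrophage marker UMIs, an alternative added after seeing the data, the ratios were -0.33 (Gzma), -0.31 (Gzmb), -0.11 (Prf1), -0.26 (Nkg7) and 0.36 (Ctsw). The NK-like interval of Prf1 included 0 there and at a lymphoid resolution of 0.5 (-0.48 to 0.0097). That of Ctsw, which included 0 as reported, lay above 0 there, under either other resolution, without doublets, without the hemoglobin filter, with at least 500 genes, with the 7 genes kept and by the marker gate. In CD8-like cells Gzma was at 0.28 with at least 500 genes per cell, 0.16 at a lymphoid resolution of 0.5 and 0.40 without the highest cell, and Gzmb at -0.99 without the highest cell. With immune cells only, the whole-library ratios were -0.999 (Gzma), -1.11 (Gzmb), -0.84 (Prf1) and -0.36 (Nkg7), and that of Ctsw changed sign to 0.022. With all deposited barcodes they were -1.19 (Gzma), -0.49 (Nkg7) and -0.13 (Ctsw). Nkg7 was at -0.78 without predicted doublets and -0.57 without the hemoglobin filter, and Gzmk at 0.18 as a mean over cells. Beyond the choice of cells each alternative states, the cause was not tested. No paired analysis was possible, because each group is 1 library pooled from different mice and no label pairs them. ILC2-like cells gave no ratio, since none of the 7 genes had 20 UMIs there.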
